A study of Mus musculus with 8 samples.

Results

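The let-7 passenger strands described here are the mature miRNAs from the 3p arms of 7 let-7 hairpins: mmu-let-7a-1-3p, mmu-let-7b-3p, mmu-let-7c-2-3p, mmu-let-7d-3p, mmu-let-7f-1-3p, mmu-let-7f-2-3p and mmu-let-7i-3p, written below without the species prefix. They were chosen by name from a table of 1978 mature mouse miRNAs, and the rows of a name were summed. The counts come from small RNA libraries of CD8+ T cells sorted from mouse spleen, 8 libraries in 4 groups of 2: WT TN, WT MP, mCre TN and mCre MP. WT and mCre are the genotypes, and TN and MP the sorted subsets. The series' design text writes Cre- for the second genotype and VM for the second subset. Its title names mir29 and Cre, the recombinase with which marked genes are deleted. The sources used here name neither the promoter that drives Cre nor the deleted sequence. Spleens were adult or neonatal, with no age attached to a single library. TN and VM commonly stand for true naive and virtual memory cells, the latter bearing CD44 and CD122 although they have not met antigen. No label states that a group's libraries are from different mice. The p-values therefore reflect the scatter among the libraries, which could be technical.

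A let-7 hairpin is cut by Drosha in the nucleus and by Dicer in the cytoplasm into a duplex of a pair of short strands. One strand, here the 5p arm, is usually kept by an Argonaute protein as the guide that represses target mRNAs through its seed, and the other, the passenger, is usually discarded. The let-7 guides are abundant in resting lymphocytes and are known to restrain the differentiation and cytotoxic function of CD8+ T cells, while LIN28 proteins can block the maturation of many let-7 hairpins.

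The mature sequences show which passengers share a seed, the bases that pair first with a target, and which names reads cannot separate. Each sequence is printed 5′ to 3′ from RefSeq on GRCm38, with the seed, bases 2 to 8, in capitals. The first set shares the seed UAUACAA, which is also that of miR-98-3p.
let-7a-1-3p: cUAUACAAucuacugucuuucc
let-7c-2-3p: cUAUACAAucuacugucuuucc
let-7b-3p: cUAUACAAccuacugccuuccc
let-7f-1-3p: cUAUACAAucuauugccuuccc
The other passengers each have a seed that no other name in the RefSeq miRNA table carries.
let-7f-2-3p: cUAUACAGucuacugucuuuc
let-7d-3p: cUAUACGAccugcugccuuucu
let-7i-3p: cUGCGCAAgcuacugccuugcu
For contrast, the guides of the let-7d and let-7i hairpins share the family seed GAGGUAG.
let-7d-5p: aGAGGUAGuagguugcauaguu
let-7i-5p: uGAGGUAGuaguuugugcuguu

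let-7a-1-3p and let-7c-2-3p are identical over all 22 bases. Their deposited counts were equal to within 0.011 in 5 of the 8 libraries and never differed by more than 2, and in 6 of the 8 libraries they were fractional. Reads of this sequence were thus divided between both names, and they are treated below as 1 sequence read under 2 names. let-7f-2-3p is 21 bases long and differs from let-7a-1-3p within them only by A8G, counted from 1 at the 5′ end, with a longest shared run of 13 bases. Its counts were fractional in 3 libraries, as were those of let-7b-3p and let-7d-3p, so these names can share some reads too. let-7f-1-3p and let-7i-3p had whole counts in every library. All 7 passengers begin with C, as do 26.0% of the 709 names ending in 3p in the RefSeq table. Of the 11 let-7 guides, 10 begin with U, and let-7d-5p begins with A.

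On GRCm38, the same assembly as the mm10 build named in the submitters' processing notes, Mirlet7d (chromosome 13, 48536012 to 48536114), Mirlet7f-1 (48537829 to 48537917) and Mirlet7a-1 (48538179 to 48538272) form a cluster on the minus strand in exons of the lincRNA 6720427I07Rik. Mirlet7c-2 (chromosome 15, 85706603 to 85706697) and Mirlet7b (85707319 to 85707403) lie on the plus strand, 621 bases apart, in exons of the noncoding gene Lncppara. Mirlet7f-2 (chromosome X, 151912346 to 151912428) lies in an intron of the ubiquitin ligase gene Huwe1, 785 bases from Mir98. Mirlet7i (chromosome 10, 122985640 to 122985724, minus strand) lies in an exon of the transcribed pseudogene D630033A02Rik. The hairpins of the most and the least abundant passenger are printed with the 3p arm in capitals, since the results turn on how much of that arm was counted.
Mirlet7d: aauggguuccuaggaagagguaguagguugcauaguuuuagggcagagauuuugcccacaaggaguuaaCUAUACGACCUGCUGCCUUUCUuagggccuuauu
Mirlet7i: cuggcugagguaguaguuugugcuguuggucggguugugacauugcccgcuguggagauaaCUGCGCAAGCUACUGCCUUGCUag
Both hairpins hold the letters GGAG, the motif that LIN28 is known to bind, between their arms. On the printed strand GGAG occurs in 5 of the 7 member hairpins, all but Mirlet7b and Mirlet7c-2, and in 44.5% of the 1005 hairpins in the table.

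Totals ran from 1936600 to 5230975 counts per library. miR-29, the miRNA in the series title, was checked before the passengers, since that title also names Cre. In MP it took 0.369% and 1.14% of the counts in WT and 0.0787% and 0.133% in mCre. In TN the libraries labelled replicate 2 went against their labels: the library labelled WT TN replicate 2 held 0.0775% (95% Wilson interval 0.0737% to 0.0815%) and the library labelled mCre TN replicate 2 held 1.59% (1.58% to 1.61%). Genotype directions in TN, or over both subsets, rest on these labels. So do MP against TN within WT or within mCre and the difference of the mCre effect between MP and TN. T cell miRNAs (7 of 7 above 0) summed to 54193 CPM or more in every library, and the myeloid markers miR-223-3p and miR-223-5p to at most 12.5 CPM. Most of the T cell sum was miR-150-5p, at 43378 to 152950 CPM. CPM here means counts per 1000000 after TMM scaling, which matches the bulk of miRNAs between libraries. In bulk libraries fewer cells of a type and less RNA per cell cannot be told apart. Intervals cover counting error only.

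All 7 passengers passed the filter on low counts that left 382 miRNAs for testing, and their levels were far apart. let-7d-3p averaged 5857 ± 2294 CPM (SD, n = 8 libraries), 22nd of the 382 by mean CPM. let-7a-1-3p followed with 96.1 ± 44.5, let-7c-2-3p with 96.0 ± 44.6, let-7b-3p with 62.8 ± 28.5, let-7f-1-3p with 37.7 ± 8.48, let-7f-2-3p with 7.97 ± 5.10 and let-7i-3p with 6.30 ± 5.94 CPM. These miRNAs are 21 or 22 bases long, so levels were compared without a length correction. The lowest library of let-7d-3p lay above the highest of every other passenger, and the lowest library of let-7f-1-3p (29.5 CPM) above the highest of let-7f-2-3p (16.6) and of let-7i-3p (18.6). Within their neighbours in this order, let-7a-1-3p, let-7b-3p and let-7f-1-3p overlapped each other in range, as did let-7f-2-3p and let-7i-3p. The sequence of let-7a-1-3p and let-7c-2-3p, summed over both names, held 93.2 to 324 CPM. As 1 sequence it thus lay above the highest library of let-7f-1-3p (54.1 CPM) and still overlapped let-7b-3p. let-7d-3p made up 84.3% to 97.6% of all member counts (median 94.1%). Together the 7 names took 0.139% to 0.816% of all counts, against 42.7% to 68.8% for the 11 guides.

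**Figure D1:**
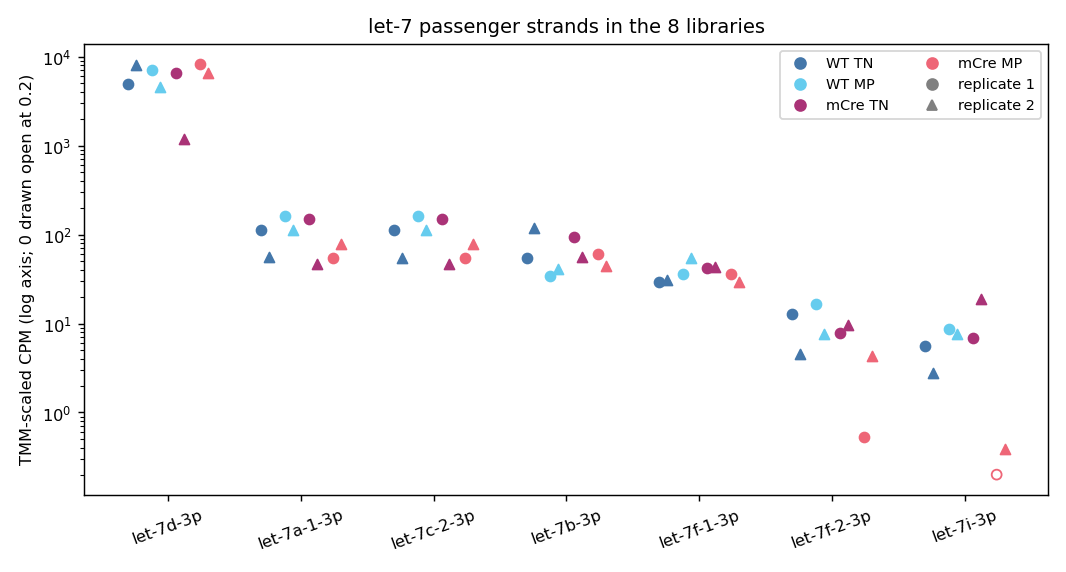
TMM-scaled CPM of the 7 passenger strands (log axis), 1 point per library, coloured by group, with circles for replicate 1 and triangles for replicate 2. let-7d-3p lies between 1179 and 8161 CPM, above every other passenger, and let-7i-3p falls to 0 (open symbol) and 0.388 CPM in the mCre MP libraries.

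The remaining let-7 3p arms in the table, apart from miR-98-3p, were scarcer still. let-7a-2-3p and let-7c-1-3p had 0 counts in all 8 libraries, which allows up to 0.118 CPM over all of them at 3 counts. let-7e-3p had 1 count in all, and let-7g-3p had 17, of which 11 lay in WT MP replicate 2. miR-98-3p, whose hairpin neighbours Mirlet7f-2, was the 1 of these 5 that passed the filter, with 27 and 4 counts in WT TN, 58 and 55 in WT MP, 55 and 23 in mCre TN, and 6 and 8 in mCre MP.

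let-7d-3p was the most abundant passenger, both in CPM and relative to its guide. In WT TN it stood at 4905 and 8001 CPM, in WT MP at 6999 and 4499, in mCre TN at 6621 and 1179, and in mCre MP at 8161 and 6487. The library labelled mCre TN replicate 2 was the low one, and the other 7 lay between 4499 and 8161 CPM. Its guide let-7d-5p stood at 8478 and 17961 CPM in WT TN, 10270 and 12882 in WT MP, 10430 and 12870 in mCre TN, and 18713 and 19096 in mCre MP. The guide was thus not low in the library labelled mCre TN replicate 2. Per 1000 guide counts, let-7d-3p held 579 and 445 counts in WT TN, 682 and 349 in WT MP, 635 and 91.6 in mCre TN, and 436 and 340 in mCre MP. The guide exceeded the passenger in all 8 libraries, by 2.57-fold on the mean log scale.

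**Figure D2:**
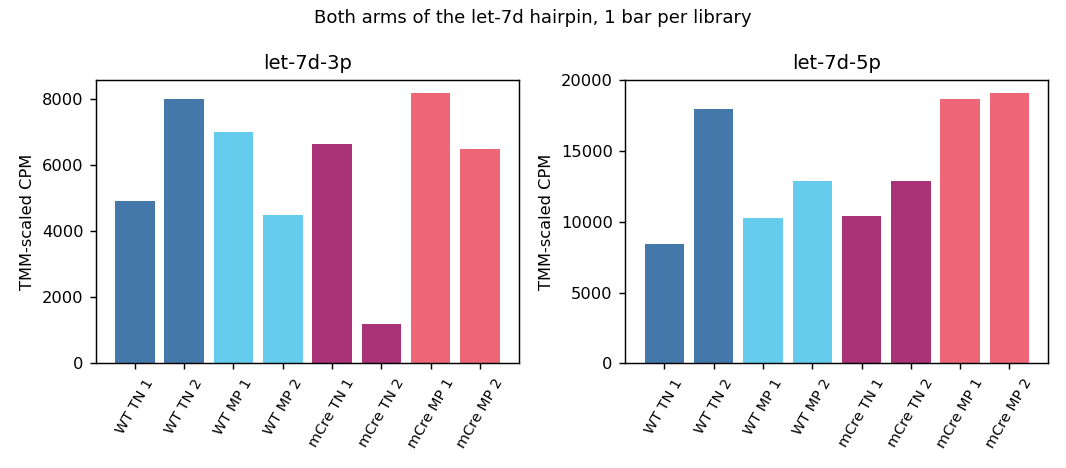
TMM-scaled CPM of let-7d-3p (left) and its guide let-7d-5p (right), 1 bar per library and coloured by group. The library labelled mCre TN replicate 2 has 1179 CPM of the passenger, the lowest of the 8, while its guide stands at 12870 CPM.

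The 3p to 5p ratio was compared over 130 hairpin arm pairs with enough counts. It was taken as log2 of 3p over 5p counts, with a pseudocount of 0.5, and does not depend on how libraries are scaled. The ratio was below 0 for every member in every library. Of the 130 pairs, 72 had the 5p arm higher, and the median size of the log2 ratio was 4.89 (quartiles 1.76 and 7.51). The mean for let-7d was -1.36, and 107 of the 130 pairs were more lopsided. By contrast let-7c-2 averaged -8.19, let-7b -8.34, let-7a-1 -9.98, let-7f-1 -12.52, let-7i -13.11 and let-7f-2 -15.10, all beyond the upper quartile in size. Only let-7g, at -18.01, was more lopsided than let-7f-2. The guides let-7a-5p, let-7c-5p and let-7f-5p each come from a pair of hairpins. Their ratios thus set a passenger against a guide that another hairpin can also supply. The passenger reads of let-7a-1 and let-7c-2 were also divided between both names, so neither of these ratios belongs to 1 hairpin.

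**Figure D3:**
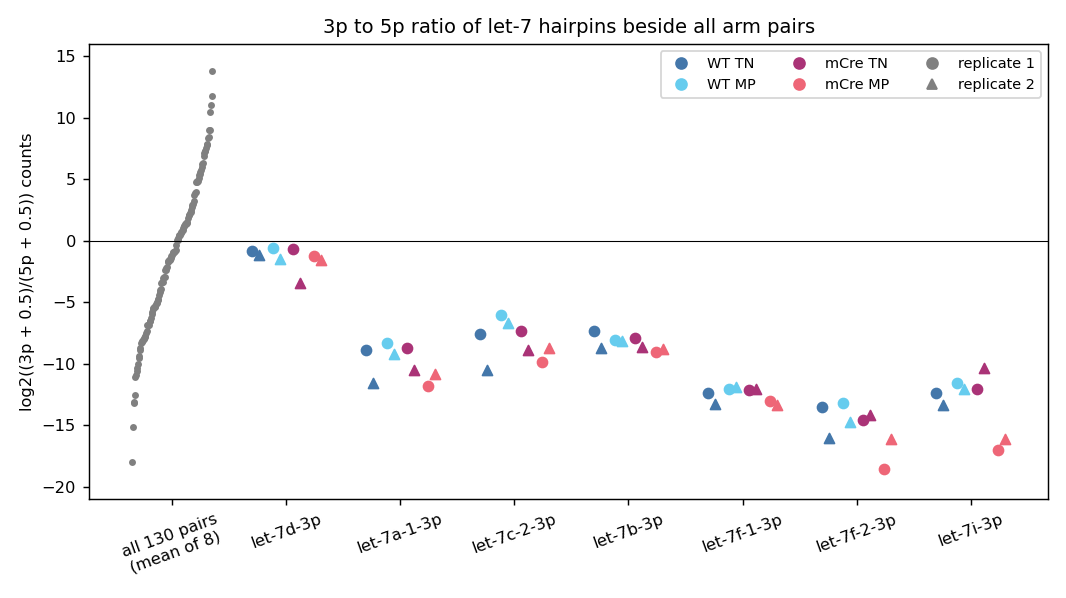
log2 ratio of 3p to 5p counts (pseudocount 0.5), with grey points for the mean of each of 130 arm pairs and coloured points for the member hairpins in each library. let-7d runs from -0.55 to -3.45 and the others from -6.02 to -18.56. In the mCre MP libraries let-7i stands at -17.02 and -16.12, from 0 and 1 passenger counts. The value at 0 counts is set by the pseudocount and the guide count.

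The subsets were compared first, MP against TN over both genotypes. edgeR's quasi-likelihood test called 0 of the 7 passengers, beside 9 of 382 miRNAs (2.36%). At an unadjusted p under 0.05 it had 0 members and 49 miRNAs, while 28 miRNAs (7.33%), 0 of them members, passed by DESeq2. Without both TN replicate 2 libraries edgeR called 48 of 433 (11.1%), again 0 of them members. Every passenger overlapped between the 4 MP and 4 TN libraries, while 42 of 382 miRNAs (11.0%) did not. The log2 changes of the 7 names ran from -1.66 to 0.37, with 4 above 0 and 3 below. Their median of 0.07, against -0.03 over all miRNAs tested, was that of the sequence of let-7a-1-3p and let-7c-2-3p. This sequence counts under both names, so the median gives no direction for the members. Of the 11 guides 0 were called and 11 overlapped, with a median of 0.17.

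Among these values let-7b-3p had the smallest p of the members. It stood at 55.2 and 117 CPM in WT TN and 93.8 and 55.6 in mCre TN, against 34.4 and 41.0 in WT MP and 60.2 and 44.7 in mCre MP. Only the mCre MP replicate 1 value reached into the TN range. The log2 change was -0.85 ± 0.40 (SE, edgeR adjusted p = 0.436), and it stayed below 0 in all 16 alternative fits.

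let-7a-1-3p, the sequence shared with let-7c-2-3p, stood at 111 and 55.6 CPM in WT TN, 162 and 113 in WT MP, 149 and 46.6 in mCre TN, and 53.8 and 77.7 in mCre MP. Both libraries labelled TN replicate 2 lay low, beside both mCre MP libraries. The change was 0.07 ± 0.52 (edgeR adjusted p = 0.944). It became -0.63 ± 0.43 without both TN replicate 2 libraries (edgeR adjusted p = 0.341), and its sign also turned with RLE or total count scaling. For let-7d-3p it was 0.37 ± 0.57 (edgeR adjusted p = 0.829), and -0.23 without the library labelled mCre TN replicate 2. let-7f-1-3p had the narrowest spread, 29.6 and 30.9 CPM in WT TN, 36.3 and 54.1 in WT MP, 41.9 and 43.5 in mCre TN, and 35.9 and 29.5 in mCre MP. Its change was 0.10 ± 0.37, and its sign likewise turned with RLE or total count scaling.

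Within WT, edgeR called 0 of 382 miRNAs (0.0%) for MP against TN, with 33 at an unadjusted p under 0.05. DESeq2 called 12 (3.14%) and edgeR without both TN replicate 2 libraries 12 (2.77%), 0 of them members. Both MP libraries lay above both TN libraries for let-7a-1-3p, let-7c-2-3p, let-7f-1-3p and let-7i-3p, beside 27.0% of all miRNAs in that direction. They lay below them for let-7b-3p, beside 13.4%. The log2 changes ran from -1.19 ± 0.57 for let-7b-3p to 0.91 ± 0.91 for let-7i-3p (edgeR adjusted p 0.625 and 0.798).

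Within mCre, edgeR again called 0 of 382 (0.0%), with 79 at an unadjusted p under 0.05, and let-7i-3p was the 1 member among them. let-7f-1-3p, let-7f-2-3p and let-7i-3p lay lower in both MP libraries than in both TN libraries, a separation that 35.6% of all miRNAs showed in that direction. let-7f-2-3p was 7.78 and 9.67 CPM in TN and 0.528 and 4.27 in MP (log2 change -1.80 ± 1.06, edgeR adjusted p = 0.328). let-7d-3p averaged 7324 ± 1184 CPM in the MP libraries and 3900 ± 3849 in the TN libraries (SD, n = 2), with overlap.

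let-7i-3p carried the widest differences of the 7. Its deposited counts were 21 and 5 in WT TN, 31 and 28 in WT MP, 41 and 54 in mCre TN, and 0 and 1 in mCre MP. As CPM these were 5.60 and 2.81, 8.59 and 7.61, 6.79 and 18.6, and 0 and 0.388. Both mCre MP libraries thus lay below all 6 others, and the library labelled mCre TN replicate 2 was the highest. The 0 in mCre MP replicate 1 allows up to 1.40 CPM at 3 counts of its unscaled total.

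Within mCre, 95 counts in TN stood against 1 in MP, 60.6-fold higher per total count (exact 95% interval 10.6 to 2419, counting alone). Of the 95, 54 came from the library labelled mCre TN replicate 2, whose miR-29 went against its label. The fitted log2 change for MP against TN was -5.63 ± 1.26 (SE, edgeR adjusted p = 0.103). By DESeq2 it was -5.86 ± 1.70 and passed (DESeq2 adjusted p = 0.0117), beside 46 miRNAs called (12.0%). edgeR also called it without the filter on low counts (edgeR adjusted p = 0.0229), beside 29 of 878 miRNAs (3.3%). It called it without WT TN replicate 1 (edgeR adjusted p = 0.0283), beside 56 of 435 (12.9%), and with the library labelled WT TN replicate 2 left out (0.0384), beside 22 of 437 (5.03%). It was not called without both TN replicate 2 libraries (-4.87 ± 1.32, edgeR adjusted p = 0.0544), where 17 of 433 passed (3.93%). Over its 16 alternatives the adjusted p ran from 0.0117 to 0.548.

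The mCre genotype was then compared with WT in MP, the subset in which miR-29 followed the labels. edgeR called 0 of 382 miRNAs (0.0%), with 41 at an unadjusted p under 0.05, as did DESeq2 (0.0%). Without both TN replicate 2 libraries edgeR called 55 of 433 (12.7%), let-7i-3p among them. In these 4 MP libraries let-7a-1-3p, let-7c-2-3p, let-7f-1-3p, let-7f-2-3p and let-7i-3p were lower in mCre without overlap, 5 names of 4 sequences, beside 38.7% of all miRNAs in that direction. let-7b-3p was higher without overlap, beside 27.2%, and let-7d-3p overlapped. The members' log2 changes ran from -4.99 to 0.47. Their median was -1.06, against -0.25 over all miRNAs tested and 0.75 over the 11 guides. That median is the value of the sequence of let-7a-1-3p and let-7c-2-3p, which counts under both names, so its size rests on that sequence. Of the guides 8 were higher in mCre without overlap and 0 lower, and 0 were called.

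let-7i-3p led the members in MP, with 59 counts in WT against 1 in mCre, 42.5-fold higher per total count in WT (exact 95% interval 7.34 to 1708, counting alone). The log2 change was -4.99 ± 1.25 (SE, edgeR adjusted p = 0.397), and -5.002 ± 1.23 without both TN replicate 2 libraries (edgeR adjusted p = 0.0247). Over its 16 alternatives the adjusted p ran from 0.0247 to 0.933. Its guide let-7i-5p went the other way, from 26223 and 33393 CPM in WT to 34949 and 41434 in mCre, a log2 difference of 0.36 ± 0.35 (edgeR adjusted p = 0.641).

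let-7f-2-3p had 88 counts in WT MP and 12 in mCre MP, 5.29-fold higher in WT (exact 95% interval 2.88 to 10.6). In CPM it was 16.6 and 7.61 in WT and 0.528 and 4.27 in mCre, a log2 difference of -2.27 ± 1.07 (edgeR adjusted p = 0.397). let-7a-1-3p differed by -1.07 ± 0.68 and let-7c-2-3p by -1.06 ± 0.68, which is 1 value under 2 names. let-7f-1-3p differed by -0.47 ± 0.48, let-7d-3p by 0.35 ± 0.76 and let-7b-3p by 0.47 ± 0.56. edgeR adjusted p for these 5 names was at least 0.471.

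**Figure D4:**
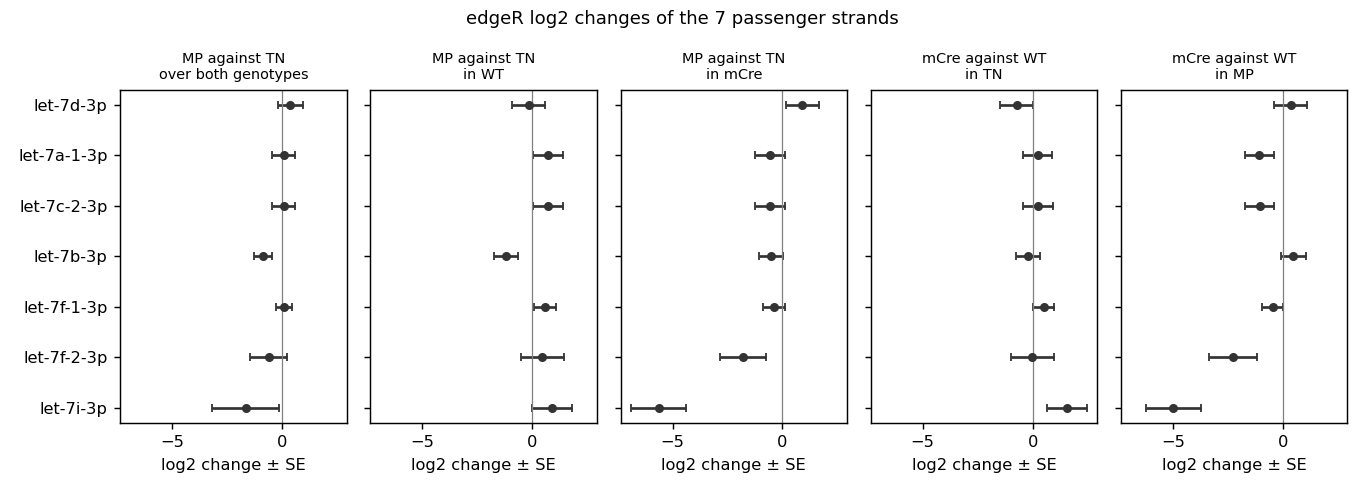
Log2 changes of the 7 passengers with their SE from edgeR, in 5 comparisons, where the vertical line marks no change. let-7i-3p stands farthest from 0, at -5.63 for MP against TN in mCre and -4.99 for mCre against WT in MP, and 0 of the 7 passed the adjusted threshold in any of the 5 panels.

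The markers of other cells were read beside let-7i-3p. The myeloid sum, of 2 markers both above 0 in the table, was 11.4 to 12.5 CPM in WT MP and 1.58 to 3.49 in mCre MP, and 5.60 to 10.4 CPM in the TN libraries. From WT MP to mCre MP it fell, as let-7i-3p did. It was highest in WT MP, while let-7i-3p was highest in the library labelled mCre TN replicate 2. The log2 ratio of miR-223-3p to miR-223-5p was 4.30 in that library and -2.81 and -1.585 in mCre MP. The 2 arms of miR-223 thus did not move together, so the sum does not stand for each of them. Of all miRNAs tested, miR-223-3p had the course most similar to that of let-7i-3p over the 8 libraries (Pearson's r of log2 CPM 0.97). The part of these markers in the difference was not tested. Erythroid markers (5 of 5 above 0) summed to 144.1 to 159 CPM in WT MP and 214.3 to 308 in mCre MP. Endothelial and stromal markers (7 of 7 above 0) summed to 69.3 to 102.5 CPM in WT MP and 38.5 to 48.9 in mCre MP. Epithelial markers (6 of 6 above 0) had the largest of these sums, 2335 to 2796 CPM in WT MP and 1680.0 to 2220.1 in mCre MP, and liver, muscle and neural markers (6 of 6 above 0) summed to 14.9 to 18.0 and 24.5 to 43.8 CPM. Like let-7i-3p, the endothelial and stromal and the epithelial sums were lower in mCre MP than in WT MP, and the erythroid and the liver, muscle and neural sums higher. Their part was not tested either.

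In TN, where the replicate 2 libraries went against their labels, edgeR called 0 of 382 miRNAs for mCre against WT (0.0%), with 12 at an unadjusted p under 0.05 and 0 by DESeq2. Both libraries labelled mCre lay above both labelled WT for let-7f-1-3p and let-7i-3p, beside 15.7% of all miRNAs in that direction. The log2 differences of the members ran from -0.73 for let-7d-3p to 1.55 ± 0.92 for let-7i-3p, with edgeR adjusted p from 0.949. Without both replicate 2 libraries, which leaves 1 library a group, that of let-7i-3p was 0.27 ± 1.13, with the lone libraries assumed to vary like the MP groups. The difference of the mCre effect between MP and TN was tested as well, and edgeR called 0 of 382 (0.0%; 53 at an unadjusted p under 0.05). It was -6.54 ± 1.56 for let-7i-3p (edgeR adjusted p = 0.306). DESeq2 called it at -6.59 ± 1.99 (DESeq2 adjusted p = 0.0369) beside 17 miRNAs (4.45%), and edgeR called it without WT TN replicate 1 (edgeR adjusted p = 0.0327), beside 68 of 435 (15.6%). Without both TN replicate 2 libraries it was -5.27 ± 1.74 (edgeR adjusted p = 0.662; 0 called, 0.0%).

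The 3p to 5p ratio was tested the same way over the 130 pairs with limma. For MP against TN over both genotypes 0 of 7 members and 0 of 130 pairs passed (0.0%), with 2 pairs at an unadjusted p under 0.05. The members' differences ran from -2.17 for let-7i to 0.76 for let-7c-2, with exact two-sided permutation p from 0.286 to 0.914, where 4 against 4 libraries cannot go below 0.0286. All 7 overlapped between the subsets, while 1.54% of the pairs did not. For mCre against WT over both subsets all 7 ratios were lower in mCre, from -0.23 for let-7f-1 to -1.52 for let-7i, and 0 of 7 and 0 of 130 (0.0%) passed. Exact two-sided permutation p was 0.257 to 0.743. The median difference over all pairs was -0.12. All 7 overlapped between the genotypes as well, against 1.54% of pairs that did not.

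Within MP, a comparison added after seeing the data, 6 of the 7 ratios were lower in both mCre libraries than in both WT libraries. Of the 130 pairs, 36.9% separated in that direction, and the median difference over all pairs was -0.41. Among the 6, let-7a-1 and let-7c-2 share passenger reads, and let-7f-1 and let-7f-2 share a guide. let-7b-3p itself was higher in mCre (edgeR log2 difference 0.47), but its guide rose more (1.32). let-7d overlapped, at -0.34 ± 1.06. The let-7i ratio stood at -11.55 and -12.07 in WT and -17.02 and -16.12 in mCre. Its difference was -4.75 ± 1.00 (SE, limma adjusted p = 0.0224), the 1 call among 130 pairs (0.769%). The exact two-sided permutation p was 0.333, the smallest that 2 against 2 libraries allow. The call ended with a pseudocount of 5 (-2.29 ± 0.94, limma adjusted p = 0.251). It also ended when either WT TN library, either WT MP library or either mCre MP library was left out (limma adjusted p 0.0731 to 0.822). let-7f-2 differed by -3.36 ± 1.12, let-7c-2 by -2.93 ± 1.11 and let-7a-1 by -2.58 ± 1.08 (limma adjusted p 0.252 to 0.317).

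**Figure D5:**
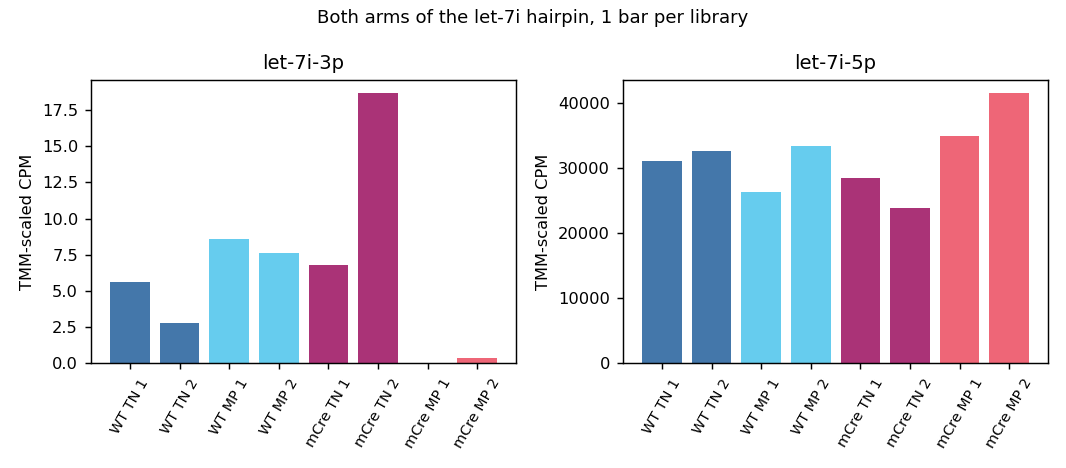
TMM-scaled CPM of let-7i-3p (left) and its guide let-7i-5p (right), 1 bar per library and coloured by group. The passenger stands at 0 and 0.388 CPM in mCre MP, below the other 6 libraries, while the guide is highest there at 34949 and 41434 CPM.

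Taking the passengers other than let-7d-3p together, their summed counts per 100000 guide counts were 79.8 and 35.5 in WT TN, 107.6 and 69.1 in WT MP, 100.6 and 49.7 in mCre TN, and 28.6 and 33.0 in mCre MP. Both mCre MP libraries were the lowest, with the library labelled WT TN replicate 2 next to them at 35.5. These 3 libraries also held the 3 largest guide shares of all counts, 63.3%, 59.6% and 68.8%. For the 121 other pairs the summed minor arms per 100 counts of the major arms were 10.4 and 5.37 in mCre MP, 8.33 in the library labelled WT TN replicate 2, and 2.41 to 4.27 in the other 5 libraries. The median log2 ratio of minor to major arm over these pairs did not set these 3 libraries apart in the same way. It was -4.39 and -4.84 in mCre MP, the latter the lowest of the 8, -4.36 in the library labelled WT TN replicate 2, and -4.50 to -4.25 in the other 5.

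The miRNAs with the most similar course over the 8 libraries were sought for each passenger by Pearson's r of log2 CPM, as a description over points that share library depth and scaling. let-7d-3p ran closest to miR-342-5p (r = 0.99), miR-340-3p (0.97) and miR-674-3p (0.96). let-7a-1-3p ran closest to miR-30c-5p (0.98), miR-484 (0.92) and miR-378a-5p (0.90), and let-7c-2-3p to miR-30c-5p, miR-484 and miR-5121. let-7b-3p ran closest to miR-211-3p (0.91), let-7f-1-3p to miR-7115-5p (0.84) and let-7f-2-3p to miR-181c-3p (0.96). let-7i-3p ran closest to the myeloid miR-223-3p (0.97), miR-23a-3p (0.93) and miR-23b-3p (0.92). Their own guides were not among these: r with the guide was 0.76 for let-7b-3p, 0.22 for let-7d-3p, -0.30 for let-7f-1-3p, -0.69 for let-7a-1-3p, -0.71 for let-7c-2-3p, -0.82 for let-7f-2-3p and -0.83 for let-7i-3p. Among the members, let-7f-2-3p and let-7i-3p had an r of 0.84, the highest for names with different sequences.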

How the data were processed

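Small RNA was sequenced from 8 libraries, each from sorted CD8+ T cells lysed in Trizol, per the labels' protocols. The authors deposited 1 table of expected counts (2128 rows, 1978 mature names), fractional where a read was divided between rows, as read from the values. The genome build was mm10, per the submitters' processing notes; the aligner, the counter and the annotation behind the names were not given in the sources used here. Rows of a name were summed and rounded. filterByExpr (minimum count 10, minimum total 15, 4 groups) left 382 miRNAs. TMM scaling and the quasi-likelihood F test of edgeR 4.0.16 (R 4.3.3, robust) were used with Benjamini-Hochberg adjustment over all miRNAs tested, at 0.05. MP against TN over both genotypes used an additive fit of subset and genotype, and the other contrasts a 4-group fit. Each SE is the size of the log2 change over the root of its F statistic. The 3p to 5p ratios used limma 3.58.1 (trend, robust) on pairs with a mean of at least 20 counts and each arm above 0 in at least 4 libraries. The scripts were tested on simulated data. Exact intervals are Clopper-Pearson on the share of counts, and shares carry 95% Wilson intervals. Totals of 1936600 to 5230975 counts set the precision. Alternatives were DESeq2 1.42.0, other scalings, no filter, merged identical sequences, a replicate block, and libraries left out. Every member is named, with its 3 nearest miRNAs by r. let-7 guides, other let-7 3p arms and cell type markers were lists. The members and lists were chosen with earlier results of these data known. Sequences and coordinates come from RefSeq (GRCm38), and host genes from GENCODE on the same build.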

Additional observations from a re-analysis of the deposited data

How the results depend on the processing

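Counts of miRNAs called moved with the method. For MP against TN over both genotypes (9 called) DESeq2 gave 28, no filter on low counts 20, the replicate block 2 and leaving out both TN replicate 2 libraries 48. In WT (0) the first, second and last of these gave 12, 6 and 12, and in mCre (0) 46, 29 and 17. The difference of the mCre effect (0) had 17 by DESeq2 and 11 without the filter, mCre against WT in TN (0) had 1 without the filter, and in MP (0) there were 55 without both TN replicate 2 libraries. The ratio call in MP (1) became 0 with a pseudocount of 5. With single libraries left out the counts ran from 0 to 41 (both genotypes), 0 to 6 (WT), 0 to 56 (mCre), 0 to 68 (difference) and 0 to 1 (ratio in MP). The 41 came without the library labelled WT TN replicate 2, and the 6, 56 and 68 without WT TN replicate 1; over both genotypes 0 were left without either of the WT MP libraries or mCre MP replicate 2.

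For MP against TN over both genotypes 3 small log2 changes turned sign with the method or without both TN replicate 2 libraries. That of let-7d-3p turned only without the library labelled mCre TN replicate 2, to -0.23. let-7a-1-3p went to -0.002747 with RLE factors, -0.1811 with total counts, -0.003306 by DESeq2, -0.01941 without the filter and -0.6263 without both TN replicate 2 libraries. let-7c-2-3p went to -0.1792 with total counts, -1.997e-05 by DESeq2, -0.01643 without the filter and -0.6283 without both TN replicate 2 libraries. let-7f-1-3p went to -0.01123 with RLE factors, -0.1092 with total counts, -0.01028 by DESeq2 and -0.05413 without both TN replicate 2 libraries. The median over all miRNAs tested was -0.03 with TMM, -0.15 with RLE and -0.23 with total counts. The ratio differences were -0.11 for let-7a-1 and 0.76 for let-7c-2. With identical sequences merged, both passengers together were set against let-7a-5p and let-7c-5p together. This other ratio differed by 0.0868. Without both TN replicate 2 libraries the difference of let-7c-2 became -0.3665 and that of let-7d -0.484.

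With single libraries left out, log2 changes for MP against TN ran from -0.32 to 0.60 for let-7a-1-3p, -0.32 to 0.61 for let-7c-2-3p, -0.23 to 0.77 for let-7d-3p and -0.17 to 0.14 for let-7f-1-3p. Ratio differences ran from -0.97 to 0.57, -0.21 to 1.46, -0.32 to 0.79 and -0.53 to 0.11 for the same names. For mCre against WT the ratio of let-7f-1 over both subsets ran from -0.61 to 0.02619, and that of let-7d in MP from -0.82 to 0.14. The cause was not tested. Of 562 alternative values counted for the members, 509 kept both direction and side of the threshold. Another 39 turned sign, and the 14 that crossed the threshold were all for let-7i-3p. For MP against TN within WT or within mCre, mCre against WT in TN, and the difference of the mCre effect, only let-7i-3p was counted.

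No common pairing of same-numbered libraries was seen: the deviations of replicate 1 correlated between groups at -0.32 to 0.41 over 382 miRNAs. WT TN stood at -0.31 with mCre TN and -0.32 with mCre MP, and WT MP at 0.41 with mCre TN. With 2 libraries a group, and TN replicate 2 libraries that went against their labels, this check cannot decide whether same-numbered libraries share a source. Under the replicate block 0 members were called on levels, and a crossed block for TN, added after seeing the data, also called 0 miRNAs. Depth limits let-7i-3p and let-7f-2-3p, which had at most 60 counts in any library.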
